A study of Mus musculus with 8 samples.

Results

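The kainate and delta glutamate receptor genes examined here were Grik1, Grik2, Grik3, Grik4, Grik5 and Grid1, together with Neto1 and Neto2, which encode auxiliary proteins of kainate receptors. The 8 genes were taken by symbol from the authors' deposited table, and each had 1 transcript cluster (a set of array probes along the gene), out of 23983 genes tested. RNA of the prefrontal cortex (cingulate part) of 8 male mice aged 12 weeks was measured on Affymetrix arrays, 1 array per mouse. The mutant group was 4 mice labelled Mll1 Ko, and the comparison group was 4 mice labelled wild-type. All 8 mice were at rest and had lived alone for a week before the brain was taken. The series title describes the loss of Kmt2a, the present name of Mll1, as neuronal. The labels used here name no Cre promoter, no deleted part of the gene and no strain.

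Kainate receptors are ion channels of 4 subunits that open when glutamate binds. The proteins of Grik1, Grik2 and Grik3 can form channels by themselves, whereas those of Grik4 and Grik5 bind the agonist kainate more tightly and need a partner from the first set. The channels sit on both sides of the synapse, where they carry slow excitatory currents and tune transmitter release. Neto1 and Neto2 are single-pass membrane proteins that slow the closing of kainate channels. GluD1, the protein of Grid1, resembles these subunits in sequence but works mainly as an adhesion receptor, binding secreted cerebellins that in turn hold presynaptic neurexins. Kmt2a is a histone methyltransferase that marks lysine 4 of histone H3 and has a CXXC domain that binds unmethylated CpG dinucleotides, so the CpG content of the members' promoters is given next.

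RefSeq start site windows of 300 bases (250 before and 50 after the start, build GRCm38.p6) were at hand for 5 of the 8 members. The dinucleotide CG, which reads the same on both strands, was counted in each window, and the median over 32851 windows was 7. The Grik3 window held 50, and 0.855% of all windows held at least as many. The Grik4 window held 42 (3.03% of windows held at least as many), the Grik2 window 26 (16.9%) and the Grik5 window 10 (43.5%). Neto2 had windows at 2 starts, with 36 at the outer start (6.23%) and 0 at the inner start, a count shared with 5.43% of windows. The bases before both Neto2 starts are printed because Neto2 is the member with windows at more than 1 start, and these differ in CpG content. Its array value is a single one, and which start its probes report is not given in the files. They read 5′ to 3′ on the minus strand with CG in capitals, and the outer stretch, at chr8:85700953-85701174, lies wholly before the annotated gene and holds 22 CG in 222 bases. The inner stretch, at chr8:85691010-85691259, holds 0 CG in 250 bases.
Neto2 outer start: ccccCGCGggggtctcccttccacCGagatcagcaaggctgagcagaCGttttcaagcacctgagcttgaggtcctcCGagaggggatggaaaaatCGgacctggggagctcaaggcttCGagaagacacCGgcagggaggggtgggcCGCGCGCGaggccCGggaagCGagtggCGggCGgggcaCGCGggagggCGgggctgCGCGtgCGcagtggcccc
Neto2 inner start: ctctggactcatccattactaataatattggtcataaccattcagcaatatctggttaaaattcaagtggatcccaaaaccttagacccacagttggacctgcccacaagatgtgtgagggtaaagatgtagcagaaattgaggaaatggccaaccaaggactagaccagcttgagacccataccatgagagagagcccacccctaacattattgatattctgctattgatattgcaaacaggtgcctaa
These letters describe the windows, and the arrays measured no binding or histone mark there.

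The values were the authors' RMA log2 signals, on which a step of 1 is a doubling. Over all clusters the array medians lay between 7.99 and 8.0 on the arrays labelled Mll1 Ko and between 8.04 and 8.08 on the wild-type arrays. On the first principal component over genes (42.7% of the variance) wild-type replicate 1 stood farthest out, at -20.33, and on the second (18.9%) wild-type replicate 4 stood apart, at -19.24. Kmt2a itself averaged 10.35 ± 0.06 on the arrays labelled Mll1 Ko and 10.06 ± 0.09 on the wild-type arrays (SD, n = 4 each), so its signal was higher in the mutant group (limma, adjusted p = 0.0142). Without wild-type replicates 1 and 4 that difference was 0.222 log2 and did not pass (limma, adjusted p = 0.0601). Since the deleted part is not known, this cluster may lie outside it and checks nothing about the labels, on which every direction given here rests. In whole tissue, fewer cells of a type and less RNA per cell cannot be told apart.

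The comparison asked whether the family's signal differed between the labelled genotypes. It gave no call in either direction: 0 of the 8 members rose and 0 fell (limma with Benjamini-Hochberg adjustment over all genes, threshold 0.05), where 10.8% of all genes tested were called, 5.15% as higher and 5.69% as lower. At an unadjusted p under 0.05 stood 2 members, Grik1 and Neto1, against 33.0% of all genes. The differences, as arrays labelled Mll1 Ko minus wild-type, lay between -0.05 for Neto2 and 0.16 for Neto1, with a median of 0.05 over the members and -0.03 over all genes. The 95% confidence intervals give the range of sizes that 4 and 4 mice leave for each gene. No interval of a member reached above a 1.22-fold rise or beyond a 1.13-fold fall in signal. After quantile normalization the widest bounds were a 1.24-fold rise and a 1.16-fold fall.

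**Figure D1:**
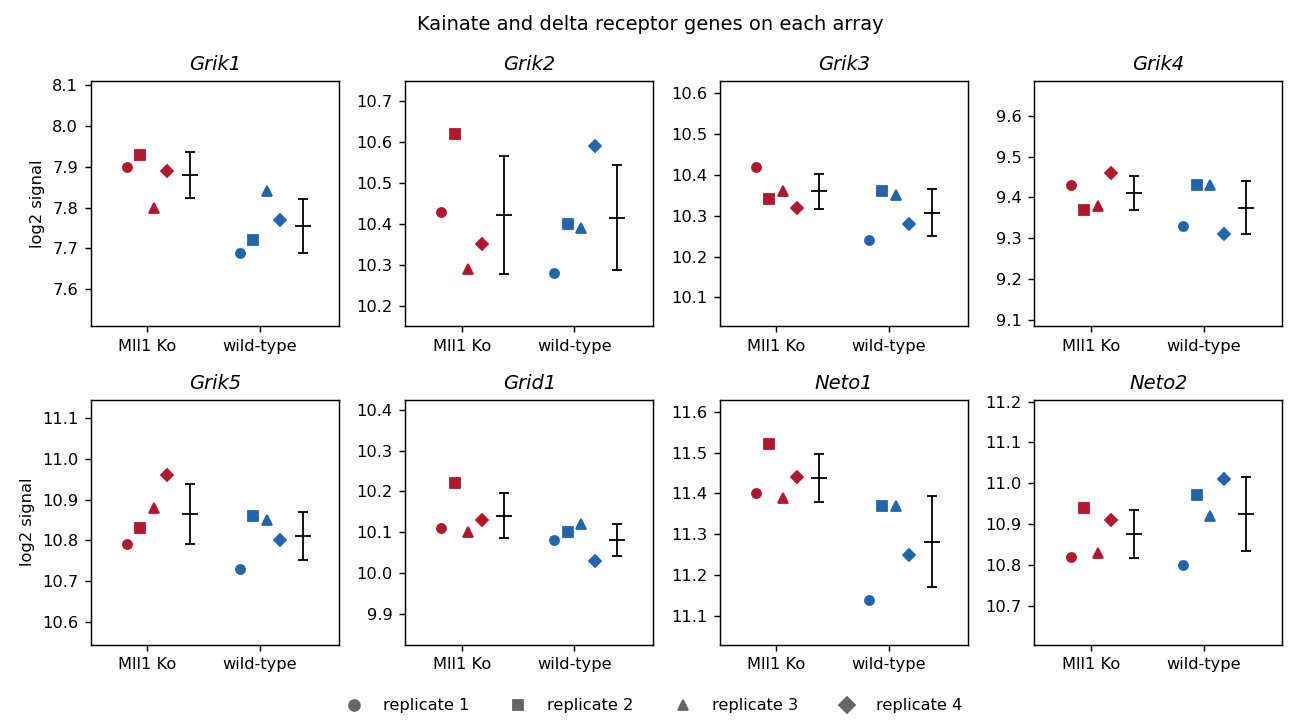
Log2 signal of the 8 members on each array (y axis, a range of 0.6 in every panel), with arrays labelled Mll1 Ko at left and wild-type arrays at right, and mean ± SD beside them (n = 4 each). Neto1 is the member whose 4 and 4 values do not overlap, from 11.39 upward on the arrays labelled Mll1 Ko and up to 11.37 on the wild-type arrays.

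Of the subunits that form channels by themselves, Grik1 showed the larger difference. Grik1 (GluK1, known in cortex mainly from interneurons; cluster 10440621) had log2 signals of 7.90, 7.93, 7.80 and 7.89 on the arrays labelled Mll1 Ko, against 7.69, 7.72, 7.84 and 7.77 on the wild-type arrays. Its groups overlapped through 1 array on each side, the lowest of the first group lying under the highest of the second. The difference was 0.13 ± 0.05 log2 (SE), or 1.09-fold with an interval of 1.01 to 1.18, and it did not pass (limma, adjusted p = 0.12). An exact two-sided permutation test over the 8 arrays gave p = 0.0571.

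Grik2 (GluK2, the most widely shared partner in kainate channels; cluster 10368999) had log2 signals of 10.43, 10.62, 10.29 and 10.35 on the arrays labelled Mll1 Ko and of 10.28, 10.40, 10.39 and 10.59 on the wild-type arrays. Each group held a high array, replicate 2 in the mutant group and replicate 4 in wild-type, and the ranges nearly coincided. The means of 10.42 ± 0.14 and 10.42 ± 0.13 (SD, n = 4 each) differed by 0.01 ± 0.08 (SE; limma, adjusted p = 0.957). Its interval still ran from 0.89-fold to 1.14-fold. Grik2 had the widest spread of the family, with a within-group SD of 0.136 log2 that was larger than that of 87.3% of all genes.

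Grik3 (GluK3, which forms channels of low glutamate sensitivity; cluster 10508052) had log2 signals of 10.42, 10.34, 10.36 and 10.32 on the arrays labelled Mll1 Ko. The wild-type arrays had 10.24, 10.36, 10.35 and 10.28. The groups overlapped and differed by 0.05 ± 0.05 log2 (SE; limma, adjusted p = 0.459), with an interval of 0.963-fold to 1.12-fold.

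The high-affinity subunits differed less than the spread between mice. Grik4 (GluK4, best known from hippocampal mossy fibre synapses; cluster 10592629) had log2 signals of 9.43, 9.37, 9.38 and 9.46 on the arrays labelled Mll1 Ko, against 9.33, 9.43, 9.43 and 9.31 on the wild-type arrays. The difference of 0.04 ± 0.05 log2 (SE) did not pass (limma, adjusted p = 0.638). Grik5 (GluK5, the common high-affinity partner of GluK2 in brain; cluster 10560945) had 10.79, 10.83, 10.88 and 10.96 on the arrays labelled Mll1 Ko, against 10.73, 10.86, 10.85 and 10.80 on the wild-type arrays. The difference of 0.06 ± 0.05 (SE) did not pass either (limma, adjusted p = 0.48). Both genes overlapped between the groups, and their intervals ended at 1.10-fold for Grik4 and 1.13-fold for Grik5.

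Grid1 (GluD1; cluster 10414137) was the steadiest member within its groups. Its log2 signals were 10.11, 10.22, 10.10 and 10.13 on the arrays labelled Mll1 Ko and 10.08, 10.10, 10.12 and 10.03 on the wild-type arrays. The within-group SD of 0.047 log2 was larger than that of 9.91% of all genes. A difference of 0.06 ± 0.05 log2 (SE; limma, adjusted p = 0.408) left an interval of 0.968-fold to 1.12-fold.

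The auxiliary proteins pointed in opposite directions, though neither passed. Neto1 (cluster 10457091) had log2 signals of 11.40, 11.52, 11.39 and 11.44 on the arrays labelled Mll1 Ko, against 11.14, 11.37, 11.37 and 11.25 on the wild-type arrays. The 4 and 4 values did not overlap, as in the same direction for 9.47% of all genes, although the gap at its narrowest was between 11.39 and 11.37. The difference of 0.16 ± 0.06 log2 (SE), or 1.11-fold with an interval of 1.02 to 1.22, missed the threshold (limma, adjusted p = 0.108). The exact two-sided permutation p was 0.0286, the smallest that 4 against 4 arrays can give. Wild-type replicate 1 was the lowest array for this gene, and with it and wild-type replicate 4 left out the difference was 0.068 log2 (limma, adjusted p = 0.449).

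Neto2 (cluster 10580382), with the starts printed above, had log2 signals of 10.82, 10.94, 10.83 and 10.91 on the arrays labelled Mll1 Ko. On the wild-type arrays it had 10.80, 10.97, 10.92 and 11.01. The groups overlapped, and the difference was -0.05 ± 0.06 log2 (SE; limma, adjusted p = 0.55), with an interval of 0.886-fold to 1.05-fold.

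The authors' deposited table gave the same calls for the family. In the authors' deposited table no member had an FDR p-value under 0.05, as against 4.13% of its 28944 clusters, so 0 of 8 is near the share over all clusters. The lowest were 0.128 for Grik1 and 0.173 for Neto1. The unadjusted p-values in the authors' deposited table were 0.0238 for Grik1 and 0.0474 for Neto1. The authors' deposited table gave signed folds of -1.12 for Grik1 and -1.08 for Neto1, on a scale that is negative where wild-type is lower.

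**Figure D2:**
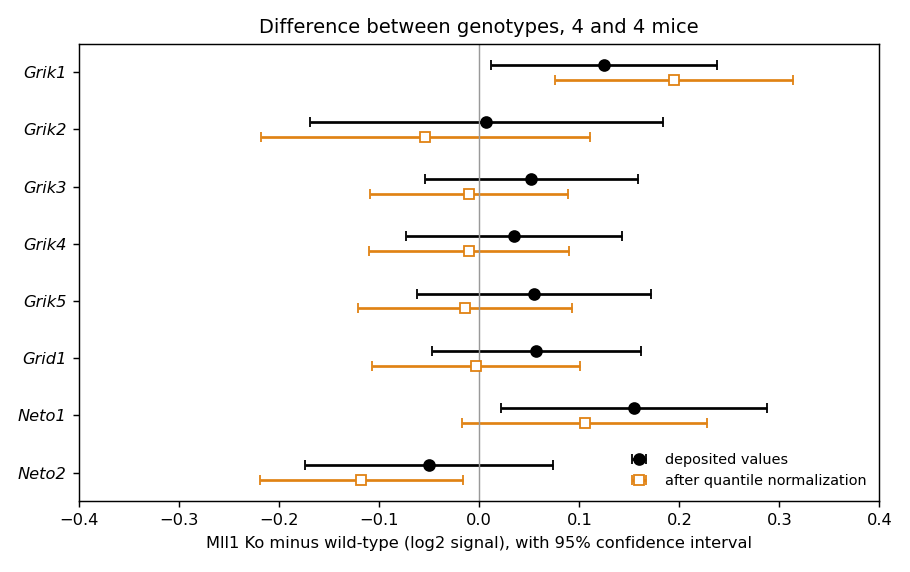
Difference in log2 signal, arrays labelled Mll1 Ko minus wild-type (x axis), with 95% confidence intervals from limma for each member (n = 4 each). Filled circles are the deposited values and open squares the values after quantile normalization, which moves Grik1 to 0.195 and Neto2 to -0.118.

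The sign of most members followed the scaling. In the deposited values 7 members lay above 0 and 1 below, while after quantile normalization 2 lay above and 6 below, with no call among the 8 (4.44% of all genes were called there). Grik2, Grik3, Grik4, Grik5 and Grid1 lay between -0.054 and -0.003 after quantile normalization. Grik1 and Neto1 were above 0 and Neto2 was below 0 in both. Grik1 came nearest to a call, at 0.195 log2 after quantile normalization (limma, adjusted p = 0.07). After cyclic loess Grik1 was at 0.201 (limma, adjusted p = 0.0641). Centring each array on its median raised every member, and Grik1 (0.186 log2; limma, adjusted p = 0.0439) and Neto1 (0.216 log2; limma, adjusted p = 0.0452) then passed, 2 of 8 members where 11.9% of all genes were called higher. The highest upper bound was then 1.28-fold.

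The members also differed in where their signals lay among all genes. All genes were ranked by brightness and divided into 10 classes, and bright classes lay higher than dim ones in the deposited values. Grik1 fell in the fourth class, with mean signals of 7.43 to 7.85, whose median difference was -0.103 log2 and in which 38 genes rose and 241 fell among 2400. Its own difference of 0.125 stood at the 95th percentile of that class, which was 0.125. Grik2, Grik3 and Grid1 fell in the ninth class (median 0.067) and Grik5, Neto1 and Neto2 in the tenth (median 0.065). There Grik3, Grid1 and Grik5 lay close to the class median, Neto1 above it and Neto2 below the lower quartile of -0.003. After quantile normalization the medians of these classes were -0.021, 0.009 and 0.008.

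**Figure D3:**
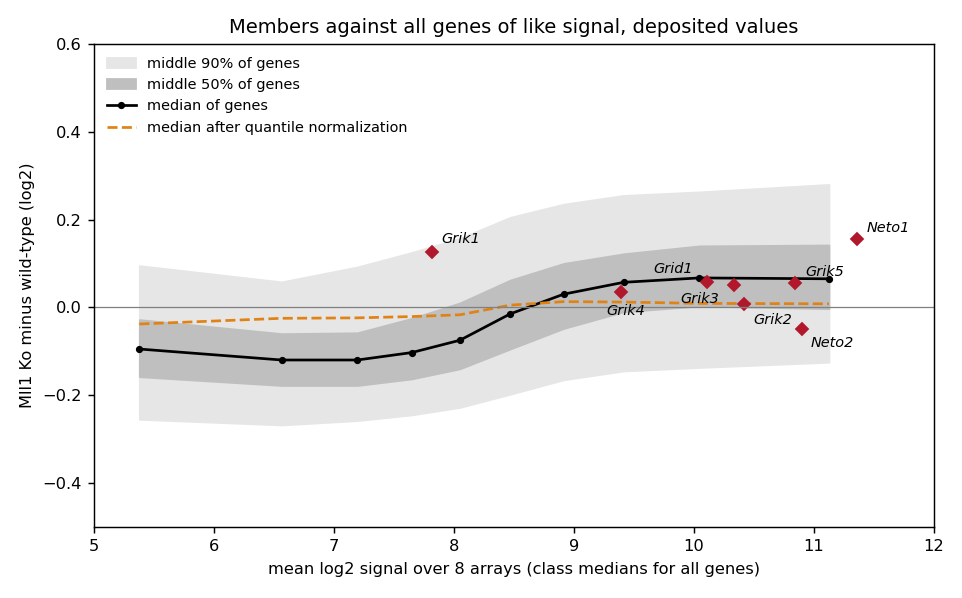
Mean log2 signal over 8 arrays (x axis) against the difference between arrays labelled Mll1 Ko and wild-type arrays (y axis, log2) in the deposited values. Diamonds are the members. The line joins the medians of 10 signal classes of all genes with bands for their middle 50% and 90%, and the dashed line gives the medians after quantile normalization. Grik1 lies at the upper edge of its band, and Neto2 below the middle 50% of bright genes.

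The balance between partners was then followed within each array, as the log2 ratio of 2 members, which centring does not alter. The ratio says nothing about which transcript is the more abundant, because probes of different genes respond differently. Of 5 ratios the one that separated the groups was Neto2 to Neto1. Neto1, a part of that ratio, also separated them by itself. How often ratios of other gene pairs separate the groups was not counted. The Neto2 to Neto1 ratio was -0.58, -0.58, -0.56 and -0.53 on the arrays labelled Mll1 Ko, against -0.34, -0.40, -0.45 and -0.24 on the wild-type arrays. The 4 mutant values were close together and all below the wild-type values. The ratio differed by -0.205 ± 0.047 log2 (SE), or 0.868-fold (exact two-sided permutation p = 0.0286, the smallest possible; 0.143 after Benjamini-Hochberg over the 5 ratios), and so did not pass. With 4 against 4 arrays, 1 separated ratio on its own among 5 could not pass after that adjustment. It stayed between -0.236 and -0.166 with any 1 array left out and was -0.223 after quantile normalization. Without wild-type replicates 1 and 4 it was -0.138.

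In the deposited values the subunit ratios overlapped between the groups. Grik1 to Grik2 differed by 0.118 ± 0.079 log2 (SE; exact permutation p = 0.2, adjusted 0.5). This ratio depended on the scaling, at 0.249 after quantile normalization and 0.262 after cyclic loess. It did not pass there either (exact permutation test, adjusted p = 0.143 for each). The ratios of Grik3 and Grik5 to Grik2 differed by 0.045 and 0.048, and that of Grik4 to Grik5 by -0.02 (adjusted p = 0.629 for each, exact permutation test). The arrays were not spread evenly: replicate 2 of the mutant group and replicate 4 of wild-type, the arrays with the highest Grik2, had the lowest ratios of Grik1 (-2.69 and -2.82) and of Grik3 (-0.28 and -0.31).

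**Figure D4:**
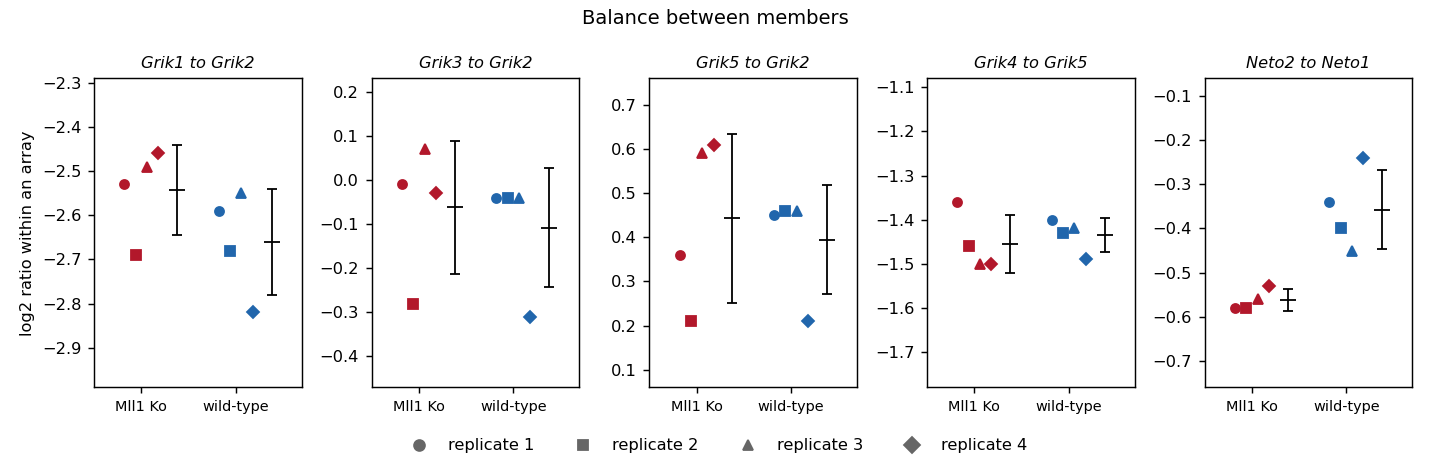
Log2 ratio of 2 members within an array (y axis, a range of 0.7 in every panel), arrays labelled Mll1 Ko at left and wild-type arrays at right, with mean ± SD beside them (n = 4 each). The Neto2 to Neto1 ratio is between -0.58 and -0.53 on the arrays labelled Mll1 Ko and between -0.45 and -0.24 on the wild-type arrays, and the other 4 ratios overlap.

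The genes whose profiles over the 8 arrays lay nearest to those of the members with the lowest p were named by the root mean square difference of mean-centred log2 values. For Neto1 they were Cpne3 (0.028), Rftn2 (0.030) and Pip5k1a (0.030), which encode a copine, a raftlin and a phosphatidylinositol kinase. Cpne3, for example, was at 8.46, 8.61, 8.42 and 8.49 on the arrays labelled Mll1 Ko and at 8.16, 8.36, 8.42 and 8.30 on the wild-type arrays. For Grik1 they were Gpam (0.024), an enzyme of glycerolipid synthesis, Fam193a (0.024) and Mina (0.025). None of these 6 genes passed (limma, adjusted p between 0.0769 and 0.257).

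Proteins that bind, anchor, modify or edit kainate and delta receptors formed a list of 34, of which 32 were tested. Among them 1 rose and 2 fell, near the shares over all genes, of which 5.15% were called higher and 5.69% lower. The median difference over the list was 0.017 log2, against -0.033 over all genes. Cbln4, a cerebellin that binds GluD1, had log2 signals of 8.68, 8.57, 8.62 and 8.46 on the arrays labelled Mll1 Ko, against 8.86, 8.97, 8.99 and 8.92 on the wild-type arrays. It fell by 0.353 ± 0.057 log2 (SE; limma, adjusted p = 0.00564), and this call held with any 1 array left out (highest adjusted p = 0.0206). Nrxn3, a neurexin to which cerebellins bind, had 11.22, 11.29, 11.08 and 11.03 against 11.36, 11.36, 11.38 and 11.41 in wild-type and fell by 0.222 ± 0.060 (SE; limma, adjusted p = 0.0395). That call was lost without any 1 of 7 arrays, all but Mll1 Ko replicate 2, at an adjusted p of up to 0.109, and after centring (-0.161; adjusted p = 0.101).

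The other cerebellins lay below 0 without passing, and Cbln3 (-0.072) turned to 0.005 after quantile normalization. Cbln2 was at 9.52 ± 0.11 on the arrays labelled Mll1 Ko and 9.71 ± 0.07 on the wild-type arrays (SD, n = 4 each), a difference of -0.188 (limma, adjusted p = 0.0726), and Cbln1 differed by -0.202 (limma, adjusted p = 0.0605). After quantile normalization Cbln2 passed (-0.241; limma, adjusted p = 0.0422), as did Adarb1, an RNA-editing enzyme that recodes GluK1 and GluK2 transcripts (-0.167; limma, adjusted p = 0.0478). Nrxn2, another neurexin, differed by 0.125 and did not pass.

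The scaffold Dlg4 (0.007) and the transporter Slc12a5 (0.015), which Neto2 is known to bind, lay near 0.

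**Figure D5:**
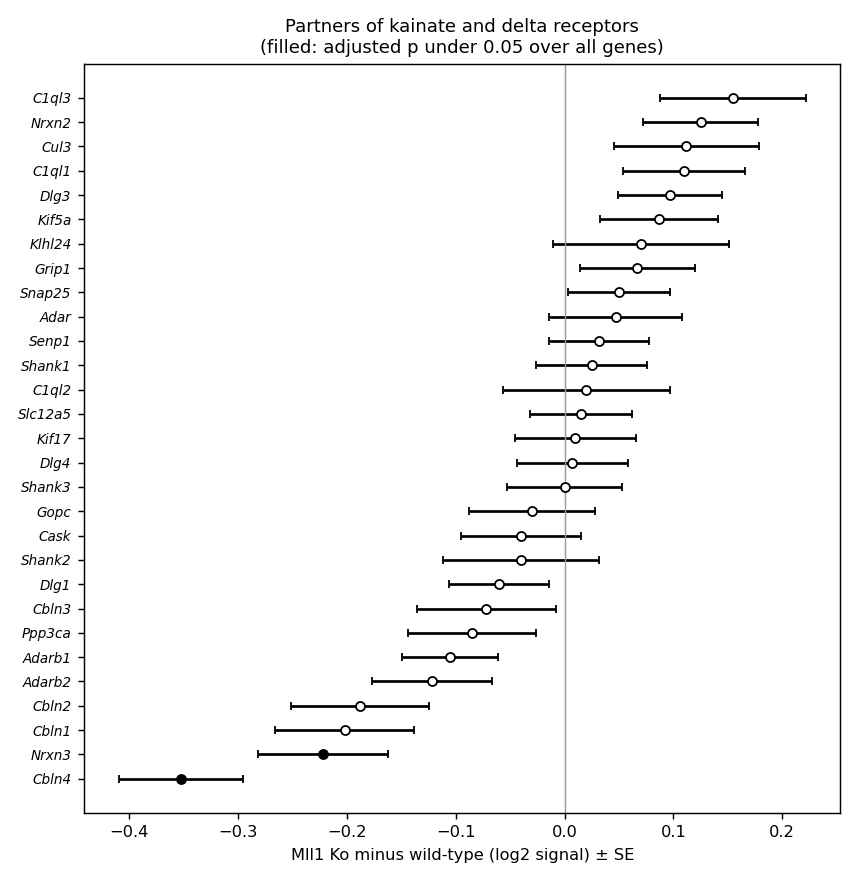
Difference in log2 signal, arrays labelled Mll1 Ko minus wild-type (x axis) ± SE, for 29 of the 32 tested partner genes. Filled points, Nrxn3 and Cbln4, passed the threshold over all genes and lie below 0.

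The other ionotropic glutamate receptor families served as a frame. Of 4 AMPA receptor subunits none rose and none fell (limma; none at an unadjusted p under 0.05), and those with the lowest p were Gria1 at 0.107 ± 0.055 log2 and Gria3 at 0.102 ± 0.057 (SE; limma, adjusted p = 0.19 and 0.225). Over all genes 10.8% were called and 5.15% were called higher, and 1 call in a list this short sets no family apart from that share. Of 7 NMDA receptor subunits 1 rose, Grin3a, which averaged 10.02 ± 0.19 on the arrays labelled Mll1 Ko and 9.44 ± 0.07 on the wild-type arrays (SD, n = 4 each). Its difference of 0.577 ± 0.083 log2 (SE; limma, adjusted p = 0.00312) exceeded the upper bound of every member's interval, of which the highest was 0.288, though the difference between families was not tested. Of 7 glutamate transporters 1 rose, the vesicular transporter Slc17a6 (0.34 ± 0.06 log2, SE; limma, adjusted p = 0.00848).

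Some markers of the cells that carry these receptors moved with the labels. Neuronal markers were bright, with a mean of 12.71 to 12.78 over 3 tested genes on the arrays labelled Mll1 Ko and 12.67 to 12.76 on the wild-type arrays, and none of the 3 rose or fell (limma; none at an unadjusted p under 0.05). Over all genes 5.15% were called higher and 5.69% lower. Of 6 markers of excitatory cortical neurons 3 fell, among them Tbr1, which fell by 0.455 log2, and Neurod2, which fell by 0.193 log2. The list mean ran from 10.68 to 10.84 on the arrays labelled Mll1 Ko and from 10.98 to 11.08 on the wild-type arrays. Slc17a7 (-0.028) and Camk2a (-0.018), also of that list, did not pass. The median difference over the list was -0.228 log2, against -0.033 over all genes. Of 10 interneuron markers Reln fell by 0.423 log2 and Gad1 fell by 0.203 log2, and the other 8 did not pass. Of these Sst was at 0.212 (limma, adjusted p = 0.0944), Vip at 0.042, Npy at 0.040 and Gad2 at 0.0. The rest lay below 0, down to -0.185 for Pvalb. The median difference over the interneuron list was -0.044 log2, against -0.033 over all genes. The list mean was 9.85 to 9.90 on the arrays labelled Mll1 Ko and 9.88 to 9.97 on the wild-type arrays. The Neurod2 call was lost without any 1 array except wild-type replicate 4 (limma, adjusted p of up to 0.121). The Gad1 call was lost without any 1 array except wild-type replicates 3 and 4 (limma, adjusted p of up to 0.085). Centring ended both (limma, adjusted p = 0.133 for Neurod2 and 0.0982 for Gad1).

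Of 4 markers of oligodendrocyte precursors 1 rose, Pdgfra by 0.222 log2, a call lost after quantile normalization (limma, adjusted p = 0.0511). In that list Sox10 lay at -0.123, Olig2 at 0.137 and Cspg4 at 0.015, and none of these passed. Of 6 striatal markers 1 fell, Adora2a by 0.41 log2, while Drd1 at 0.097, Ppp1r1b at 0.002, Drd2 at -0.118 and Rgs9 at -0.113 did not pass. With 5.15% of all genes called higher and 5.69% lower, 1 call in lists this short sets neither cell type apart. None of the 6 astrocyte, 6 oligodendrocyte, 5 microglia, 4 endothelial and 3 choroid plexus markers passed (limma). Of these 24, 5 had an unadjusted p under 0.05 (limma), against 33.0% of all genes. The part of cell composition in the members' values was not tested.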

How the data were processed

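The 8 arrays, 4 labelled Mll1 Ko and 4 labelled wild-type, were grouped by their titles. The deposited log2 signals of 35556 transcript clusters were made by the authors with Affymetrix Expression Console, RMA and Transcriptome Analysis Console 3.0, as named without role or order per the submitters' processing notes. RMA corrects background, quantile normalizes probes and summarises them per cluster. Array model, genome build and annotation are not given in the sources used. A table of the authors' comparison for 28944 clusters supplied gene symbols, and its deposited mean log2 signals, signed linear fold, ANOVA p-value and FDR p-value are as its file header names them. The fold is a signed score in which the authors put wild-type over ko. Clusters whose description named several genes (1436) and clusters without a gene symbol (2108) were left out of the gene test.

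For each symbol the cluster with the highest mean over the 8 arrays was kept, which gave 23983 genes. Differences, as arrays labelled Mll1 Ko minus wild-type, were fitted with limma 3.58.1 in R 4.3.3 (lmFit, eBayes, no covariate, no filter), with Benjamini-Hochberg adjustment over all genes and a threshold of 0.05. SE and 95% intervals are limma's, and SD is over the 4 arrays of a group. Ratios between 2 members were tested with an exact two-sided permutation test over arrays. Alternatives changed the normalization, dim gene filter, array weights, moderation, cluster per gene, replicate block and threshold, or left arrays out. The procedure was tested on simulated data. The members and lists were chosen with earlier results of these data known. All members were named, and a few list genes that the counts include are not reported here. From each receptor, transporter or partner list the genes past the threshold were named, or else the 2 with the lowest p, and also the 3 nearest profiles of the 2 members with the lowest p. Partner genes under the threshold that the text names beyond these, and the cell type markers it names, were chosen after their values were seen. Replicate numbers are shared by the groups but did not pair the arrays: deviations from the group means correlated at -0.00842 to 0.0236 for same-numbered arrays over genes. The precision is limited by the number of arrays. Any 2 arrays shared the same value at 1339 clusters or fewer.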

Additional observations from a re-analysis of the deposited data

Results flagged for a closer look

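The log2 ratio of Grik3 to Grik2 was -0.31 on wild-type replicate 4, while the other 3 wild-type arrays were all at -0.04. The log2 ratio of Grik5 to Grik2 was 0.21 on the same array, with the others at 0.45 to 0.46. Both values stood far from the rest of their group, by 100% and 96.0% of its range, and both share the Grik2 signal of 10.59 on that array, the highest of the wild-type group. In all 52 groups of 4 values were examined, 2 of them were marked, and chance marks about 1 in 20.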

How the results depend on the processing

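Over 19 alternatives to the deposited values and the limma fit, the members gave no call except under centring of each array on its median, where 2 of the 8 members (Grik1 and Neto1) were higher. Grik1 and Neto1 kept their sign throughout, with Grik1 at 0.103 to 0.153 and Neto1 at 0.107 to 0.184 when 1 array was left out. Signs turned as follows. After quantile normalization the differences were -0.054 for Grik2, -0.010 for Grik3, -0.010 for Grik4, -0.014 for Grik5 and -0.003 for Grid1. After cyclic loess normalization with 3 iterations they were -0.061, -0.014, -0.009, -0.018 and -0.006 for the same genes. Grik4 was at -0.001 with array weights and at -0.020 without wild-type replicates 1 and 4, Neto2 was at 0.011 after centring, and Grik2 ran from -0.058 to 0.066 with 1 array left out. None of these turned values passed, and the cause was not tested.

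The ratio of Grik4 to Grik5 was 0.004 after quantile normalization and 0.009 after cyclic loess, and ran from -0.052 to -0.005 with 1 array left out. Without wild-type replicates 1 and 4 the ratio of Grik3 to Grik2 was -0.022 and that of Grik5 to Grik2 was -0.017. With 1 array left out these ran from -0.022 to 0.118 and from -0.014 to 0.125. The Grik1 to Grik2 ratio ran from 0.064 to 0.167 and that of Neto2 to Neto1 from -0.236 to -0.166. Quantile normalization put the Grik1 to Grik2 ratio at 0.249 and cyclic loess put it at 0.262, without a call.

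Counts over all genes moved more. Against 1236 higher and 1364 lower in the deposited values, quantile normalization gave 686 and 379, cyclic loess 746 and 437, centring 2845 and 482, the unmoderated test 552 and 384, the fit without wild-type replicates 1 and 4 424 and 395, and an adjusted p under 0.1 gave 2237 and 3263. Array weights gave 2469 lower. With 1 array left out the higher genes numbered 398 to 1506 and the lower 313 to 1755. With the replicate number as a block 799 genes were higher and 759 lower, and no member was called. That block left the Neto2 to Neto1 ratio at -0.205 (exact sign-flip test over the 4 same-numbered differences, adjusted p = 0.625). With 4 differences no ratio could pass that test, so this p-value does not show a weaker ratio. Each member had 1 cluster, so the choice of cluster could not move its difference.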
